A study of Mus musculus with 10 samples.

Results

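A pair of mouse embryonic stem (ES) cell lines served as untreated controls in this series, and their gene expression is compared here as a baseline. Of the 10 RNA-seq libraries 4 enter the comparison, 2 labelled WT and 2 labelled Control. The WT cells carried floxed alleles of Mof with an intact gene and the Cre-ER TM recombinase, with the strain given as C57BL/6J. The Control cells were of the E14tg2a line and received H2O for 4 days. In the same series the floxed line was also sequenced after Mof deletion (KO), and E14tg2a after 4 days of etomoxir, an inhibitor of fatty acid entry into mitochondria (ETO), and after 4 more days without it (Released). Treatment of the floxed line lasted 3 days with ethanol or 100 nM 4-hydroxytamoxifen, which activates the Cre fusion protein, and the labels do not say which group had which. All groups grew in medium with a MEK inhibitor, a GSK3 inhibitor and LIF. Line, genetic background, vehicle and culture differ together between WT and Control and cannot be told apart. Members were the autosomal genes with at least 10 normalised counts in at least 2 of the 10 libraries, 15046 of the 16058 genes tested.

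ES cells hold the pluripotent state of the early embryo in culture. In this medium, blocking MEK silences the ERK branch of growth factor signalling, blocking GSK3 stabilises beta-catenin and so turns on Wnt target genes, and LIF acts through the transcription factor STAT3. Lines from different mouse strains are known to differ in how they respond to these signals and in the alleles they carry. Mof, whose gene symbol is Kat8, is a histone H4 acetyltransferase and the catalytic subunit of the MSL and NSL complexes.

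Values are normalised counts, the read count of a gene divided by 1 factor per library, and each library held an estimated 9783467 to 16778540 reads. In the 4 libraries compared, 3 reads correspond to between 2.78 and 3.30 normalised counts, which is the upper limit that a value of 0 allows. Median absolute log2 differences between the replicates of a group were 0.18 in WT and 0.104 in Control. Libraries of a group are given as biological duplicates with no further detail, and a p-value here covers no spread beyond that among these 10 libraries. In RNA from a cell population, fewer cells that express a gene and less RNA per cell cannot be told apart.

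Genes that bear on the labels were read first. Pou5f1, the central pluripotency factor, had 8386 and 7634 normalised counts in WT and 8266 and 8482 in Control. Sox2, its partner, stood at 4065 and 4072 in WT and at 4380 and 4378 in Control. Neither passed the test. Hprt, an X-linked gene deleted in E14tg2a, had 1883 and 2202 in WT and 7.71 and 4.15 in Control, and all E14tg2a libraries lay at 7.71 or below. Esr1, whose ligand-binding domain is part of Cre-ER fusion proteins, had 172 and 146 in WT and was listed at 0 in both Control libraries, at least 49.6-fold higher in WT against 3 reads per library. Kat8 itself did not differ between the untreated lines, with 433 and 357 in WT against 372 and 383 in Control (log2 difference 0.06, SE 0.11, adjusted p = 0.674, limma). The Y-linked genes Ddx3y and Uty were above 380 normalised counts in all 4 libraries. Eif2s3y, also Y-linked, was lower in WT, with 218 and 268 against 794 and 896 in Control. Kdm5d, another, had 5.55 and 1.96 in WT and 0 in both Control libraries. Nnt, a mitochondrial transhydrogenase with a known deletion in C57BL/6J mice, had 2572 and 2467 in WT and 626 and 711 in Control. It was thus higher in the line labelled with that strain (log2 difference 1.92, SE 0.08, adjusted p = 3.29e-11), and values per gene do not show which exons the reads cover.

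The lines differed at most expressed genes. Of the 15046 autosomal genes, 9579 (63.7%) passed an adjusted p under 0.05 in limma, 4785 (31.8%) higher in WT and 4794 (31.9%) lower. A called difference of at least 2-fold was found for 3795 genes (25.2%), 2163 higher in WT (14.4%) and 1632 lower (10.8%). At 4-fold or more there were 798 higher and 564 lower, and at 16-fold or more 117 and 88. Both WT libraries lay beyond both Control libraries at 12080 genes (80.3%). The median absolute log2 difference was 0.533 and the median signed difference -0.01.

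Most of these differences were also present between the other libraries of the same lines. KO against Released compares the lines in libraries that WT against Control does not use, under other treatments, and 9898 genes (65.8%) were called there. Of the 2163 genes at least 2-fold higher in WT, 1693 (78.3%) were called in the same direction in KO against Released and 26 in the opposite one. For the 1632 lower genes the counts were 1375 (84.3%) and 7. The genes 2-fold apart in the same direction in both comparisons numbered 2473, which is 65.2% of the first list and 61.8% of the second. All 4 libraries of the floxed line lay outside the range of all 6 E14tg2a libraries at 5390 genes (35.8%), above it at 2958 (19.7%) and below it at 2432 (16.2%). Long non-coding genes were called 2-fold apart more often than protein-coding genes, 40.9% of 952 against 24.7% of 12345, and pseudogenes less often, 15.8% of 1357, a description without a test. The share also fell with expression, from 43.4% of the 4042 genes with a mean under 50 normalised counts. It was 27.3% of the 5428 genes between 50 and 500 and 10.1% of the 5318 genes between 500 and 5000. The filter asked for 10 normalised counts in only 2 of the 10 libraries. A gene with a low mean could thus enter through the group in which it was high, which can raise the share in the lowest class. The same holds for any kind of gene with many low means. How much of these contrasts comes from the filter was not tested.

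Genes at the extremes included several with near-silent expression in either WT or Control. Ubd, a ubiquitin-like modifier next to the major histocompatibility complex, had 345 and 360 in WT and was listed at 0 in both Control libraries, at least 110-fold apart (adjusted p = 1.96e-10). Saa3, an acute-phase serum amyloid, had 135 and 126 in WT and 0 in both Control libraries. Fgg, the fibrinogen gamma chain, had 394 and 417 in WT and 2.20 and 5.19 in Control. Dll1, a ligand of Notch receptors, had 188 and 172 in WT and 0 and 3.11 in Control, but 57.8 and 58.1 in the ETO libraries of E14tg2a. WT and Control did not overlap at these genes, which was a condition for choosing them and held at 80.3% of all tested genes.

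On the other side stood several genes of BMP signalling and of mesoderm. Id3, an inhibitor of helix-loop-helix factors and a classical BMP target, was listed at 0 in both WT libraries and had 291 and 306 in Control, at least 104-fold apart (adjusted p = 5.64e-11). Bmp4, a BMP ligand, had 1.85 and 2.95 in WT and 165 and 166 in Control (log2 difference -5.63, SE 0.35, adjusted p = 2.17e-09). T, the mesodermal T-box factor brachyury, had 1.85 and 1.96 in WT against 172 and 193 in Control (-5.98, SE 0.32, adjusted p = 5.55e-10). Smyd1, a muscle histone methyltransferase, had 5.55 and 1.96 against 195 and 231. Dab2, an endocytic adaptor of primitive endoderm, had 7.40 and 1.96 against 209 and 182. The 24 genes named for the largest differences, 12 in each direction, were taken after passing over merged rows and predicted gene names. All 24 were called in the same direction in KO against Released, against 78.3% of the genes at least 2-fold higher in WT and 84.3% of those lower. At all 24 the floxed line lay outside the range of E14tg2a, against 60.5% and 69.9% of those genes. The WT and Control libraries that served to choose the 24 are part of that range, so the choice itself favours this outcome.

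**Figure D1:**
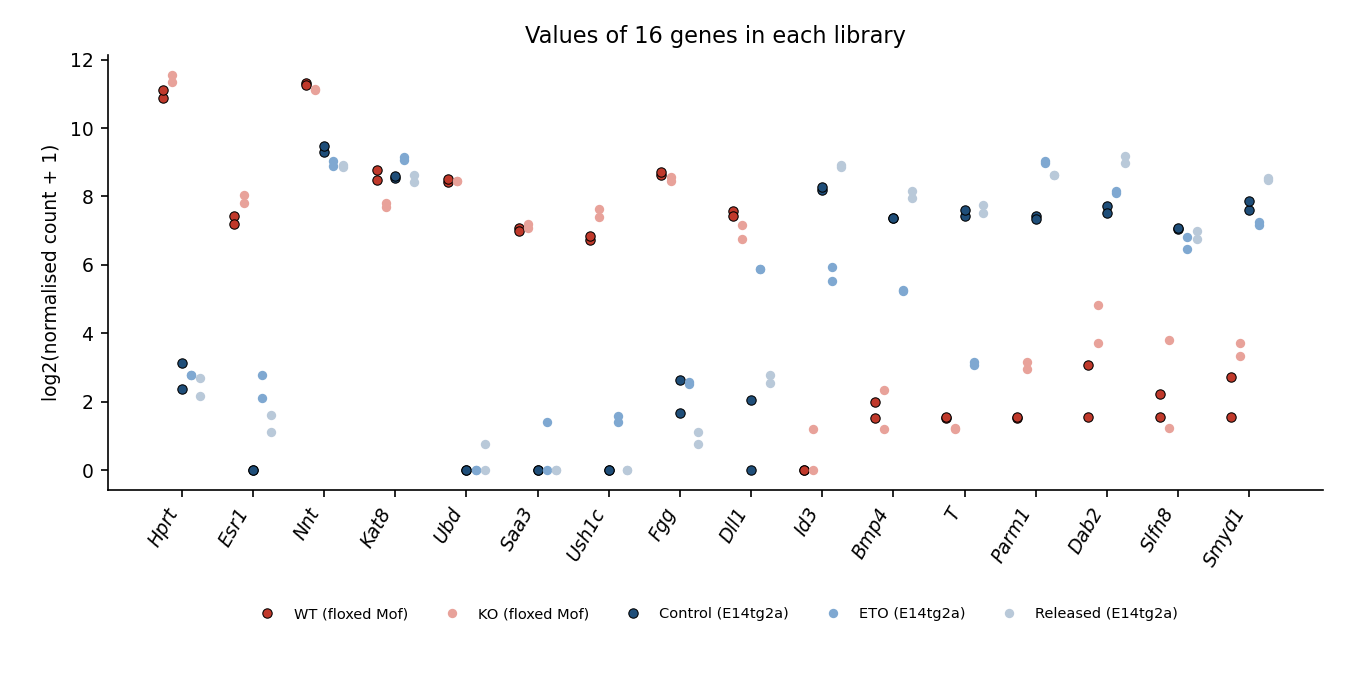
Normalised counts of 16 genes as log2(value + 1), 1 point per library, with the 2 groups compared outlined in black and the other 6 libraries in paler colours. Kat8 is the gene at which WT and Control overlap, while Ubd sits at 345 and 360 in WT and at 0 in Control, and Id3 at 0 in WT and at 291 and 306 in Control.

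Some of the extreme rows were members of near-identical gene copies, for which the counting of reads could assign the same transcript to different rows. Rps3a1, a ribosomal protein gene, had 1344 and 1726 in WT and 7.71 and 7.27 in Control, whereas its processed pseudogene Rps3a3 had 5.55 and 2.95 in WT and 5050 and 4841 in Control. The Rps3a1 coding sequence and Rps3a3 were 98.9% identical over 795 bases in the GENCODE transcripts of GRCm38, with 9 differences. A stretch of 80 bases, positions 355 to 434 counted from the start codon, shows how close they are. It lies in exon sequence of Rps3a1 at chr3:86139169-86139248 on the minus strand and of Rps3a3 at chr13:108670957-108671036 on the plus strand, and the capitals mark the differences C363T and A427T, with the Rps3a1 base first.
Rps3a1: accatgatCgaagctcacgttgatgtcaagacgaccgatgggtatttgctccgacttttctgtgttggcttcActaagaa
Rps3a3: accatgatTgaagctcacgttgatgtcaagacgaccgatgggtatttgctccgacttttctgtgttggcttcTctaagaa
Rpl29 (461 and 342 in WT, 5.50 and 6.23 in Control) and Rpl34 (2721 and 2831 in WT, 150 and 161 in Control) showed gaps of the same kind. The merged row of Ftl1, the ferritin light chain, and Gm22133 had 12012 and 10871 in WT and 118 and 92.4 in Control. Rows of such families are uncertain, and the part of read assignment in these differences was not tested. Across the 79 tested cytosolic ribosomal protein genes, 13 were higher and 29 lower in WT, with a median log2 difference of -0.17.

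Naive pluripotency factors were mostly somewhat lower in WT. Of 25 tested genes, 6 were higher and 16 lower, with a median log2 difference of -0.48, against 31.8% and 31.9% of all tested genes. L1td1, an RNA-binding protein of pluripotent cells, had 645 and 692 in WT and 6306 and 6271 in Control (-3.23, SE 0.06, adjusted p = 1.73e-14). Gbx2, a homeobox factor downstream of STAT3, had 62.1 and 46.1 in WT and 475 and 466 in Control (-3.11, SE 0.17, adjusted p = 6e-10). Nanog had 5011 and 5096 against 9050 and 9536, a ratio of 1.84, and Klf4 also differed by 1.84-fold. Dppa3, a maternal factor that guards DNA methylation in the zygote, went the other way with 329 and 311 in WT against 31.9 and 36.3 in Control (3.19, SE 0.16, adjusted p = 2.32e-10). Esrrb, with 17996 and 16807 against 12495 and 12417, was also higher in WT, as were Fgf4 and Klf5. Of the 22 called genes, 20 were called in the same direction in KO against Released, against 72.6% of all called genes. At 6 of the 25 tested genes the floxed line lay outside the range of all 6 E14tg2a libraries, ETO included, against 35.8% of all tested genes.

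Most tested genes of the formative and primed states and of the primitive streak were lower in WT. Among 16 formative and primed genes 2 were higher and 11 lower, with a median of -0.97. The 2 higher genes were Sall2, a zinc-finger factor, with 239 and 232 in WT against 57.2 and 64.3 in Control, and Pou3f1, a POU factor, with 13.9 and 16.7 against 2.20 and 7.06. Nodal, a TGF-beta ligand, had 429 and 326 in WT against 1062 and 1099 in Control. Lefty1, its secreted antagonist, had 12.96 and 8.84 against 270 and 255, but in KO against Released its log2 difference was -0.03. Lefty2 stood at 153 and 172 against 761 and 737. Dnmt3b, a de novo DNA methyltransferase, had 770 and 788 against 1777 and 1750. Of 8 tested mesoderm and streak markers 1 was higher and 5 lower. The higher one was Tbx6, a T-box factor of presomitic mesoderm, with 19.4 and 12.8 in WT against 1.10 and 2.08 in Control. Kdr, a VEGF receptor, had 2.78 and 2.95 in WT and 44.0 and 46.7 in Control, and Evx1, a streak homeobox gene, was listed at 0 in both WT libraries and had 15.4 and 11.4 in Control. The 13 markers of that list in the table summed to 117 to 141 normalised counts in WT and 372 to 411 in Control.

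Direct targets of Wnt and beta-catenin were the list that lay lowest in WT. None of the 19 tested members was called higher and 13 were called lower, 11 of them at least 2-fold, with a median log2 difference of -1.71 (-1.57 with genes listed at 0 set to the bound that 3 reads allow). Sp5, a zinc-finger factor induced by beta-catenin, had 36.1 and 26.5 in WT and 1183 and 1116 in Control (-5.17, SE 0.14, adjusted p = 4.74e-13). Axin2, a feedback inhibitor of the pathway, had 811 and 757 against 2341 and 2318 (-1.57, SE 0.08, adjusted p = 1.7e-10). Notum, a secreted Wnt deacylase, had 448 and 391 against 1513 and 1398, but 402 and 433 in the ETO libraries of E14tg2a. Dkk1, a Wnt receptor antagonist, had 0.925 and 0 in WT and 73.8 and 72.7 in Control. Myc had 9.25 and 13.7 against 141 and 156, and Ccnd1, the G1 cyclin, 1431 and 1483 against 4869 and 4680. Cdx2, a caudal homeobox factor, was listed at 0 in both WT libraries and had 61.6 and 35.3 in Control, at least 16.9-fold apart. Znrf3, Rnf43, Tnfrsf19, Nkd1, Nkd2 and Wnt3 were not called, and Znrf3 had 333 and 340 against 336 and 344. Of the 13 lower genes 12 were also lower in KO against Released. At 11 of the 19 tested genes the floxed line lay outside the range of all 6 E14tg2a libraries, against 35.8% of all tested genes.

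The promoters of Sp5 and Dkk1 are shown because these genes were among the lowest in WT and hold more than 1 match to the TCF/LEF motif, the DNA sequence through which beta-catenin acts. The 250 bases before each RefSeq start site (GRCm38.p6) were searched on both strands for CTTTG followed by AA, AT, TA or TT, and matches are in capitals. Sp5 lies at chr2:70474673-70474922 on the plus strand and Dkk1 at chr19:30549497-30549746 on the minus strand.
Sp5: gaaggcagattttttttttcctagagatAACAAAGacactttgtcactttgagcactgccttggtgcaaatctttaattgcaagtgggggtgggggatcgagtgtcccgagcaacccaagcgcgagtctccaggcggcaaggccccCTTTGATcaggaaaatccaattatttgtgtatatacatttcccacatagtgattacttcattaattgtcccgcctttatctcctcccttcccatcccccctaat
Dkk1: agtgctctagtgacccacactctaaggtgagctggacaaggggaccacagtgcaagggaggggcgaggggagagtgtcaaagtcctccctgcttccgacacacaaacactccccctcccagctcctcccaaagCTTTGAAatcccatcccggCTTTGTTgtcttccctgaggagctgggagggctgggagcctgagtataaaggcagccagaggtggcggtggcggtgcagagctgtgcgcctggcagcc
A match was present for 5 of the 13 list members with a promoter in the RefSeq set, 4 of them lower in WT (Sp5, Dkk1, T and Lef1) and 1 not called, against 12.4% of the 9520 tested autosomal genes with a promoter. The list was made of Wnt targets, and 13 of its 19 tested members were lower in WT, with or without a match. A match describes the letters only.

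ERK-responsive genes were mostly lower in WT as well. Of 21 tested, 4 were higher and 14 lower, with a median of -0.79, and 16 of the 18 called genes kept their direction and call in KO against Released. At 6 of the 21 the floxed line lay outside the range of all 6 E14tg2a libraries, against 35.8% of all tested genes. Etv1, an ETS factor, had 29.6 and 15.7 in WT and 223 and 259 in Control, and Spry4, an inhibitor of the pathway, had 24.1 and 30.4 against 70.4 and 49.8. Dusp6, an ERK phosphatase, had 141 and 133 against 256 and 265. Dusp4, another phosphatase of the family, was the exception in size, with 391 and 351 in WT against 25.3 and 23.9 in Control (3.86, SE 0.17, adjusted p = 6.05e-11). Fos, at 90.7 and 58.9 against 25.3 and 38.4, was also higher. LIF and STAT3 pathway genes divided evenly, with 7 higher and 8 lower of 19 and a median of 0.09.

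**Figure D2:**
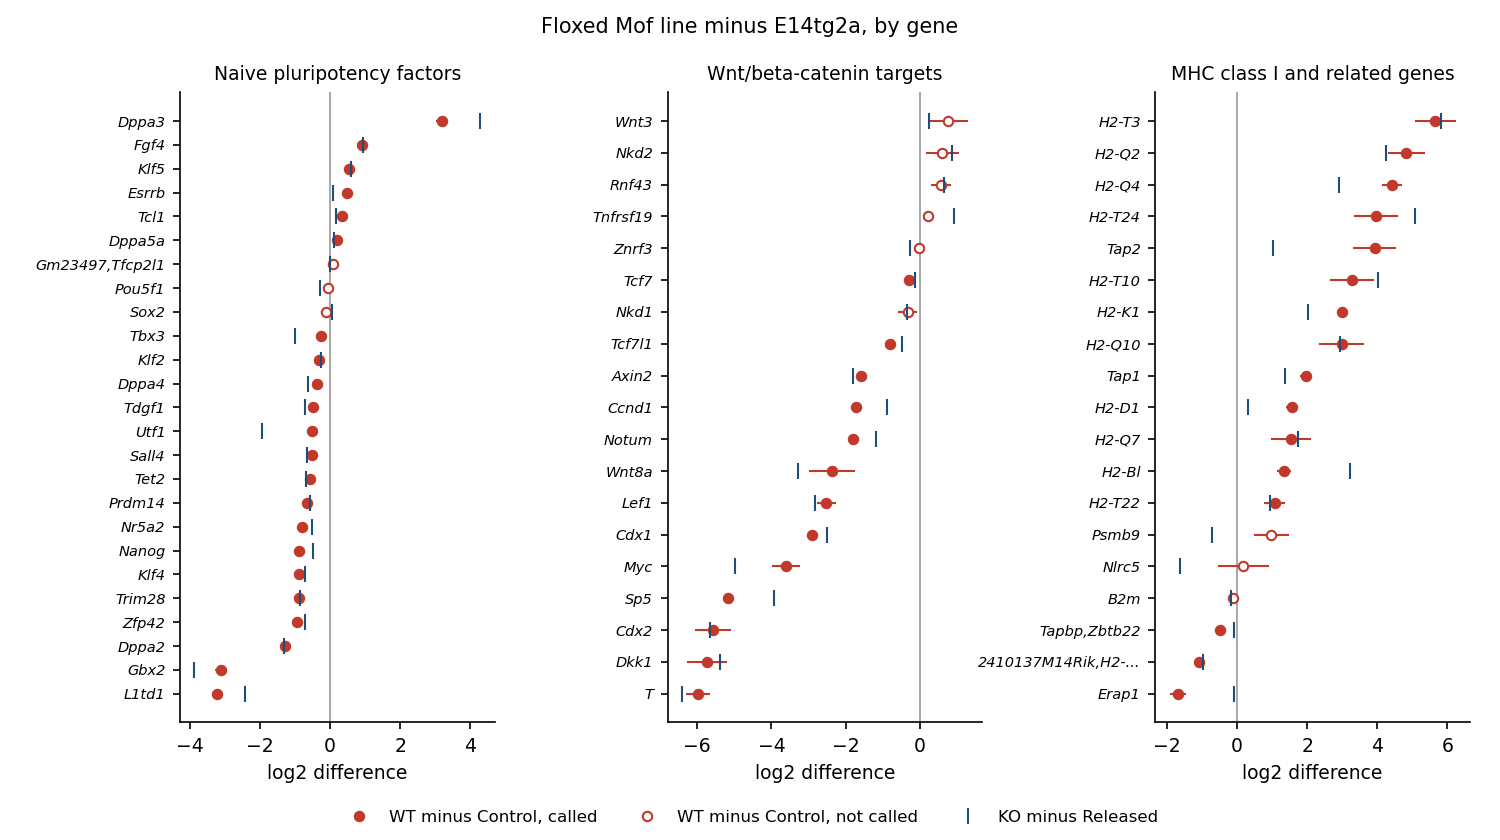
Log2 differences with standard errors for the tested members of 3 lists, WT minus Control in red (filled where called) and KO minus Released as blue ticks, some rows being named by more than 1 gene. Wnt targets extend to -5.98 with none called above 0, naive factors lie near -0.48 with Dppa3 at 3.19, and most class I genes lie above 1.

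Most tested class I genes of the major histocompatibility complex, which present peptides at the cell surface, were higher in WT. Of 19 tested genes of the family and its peptide loading machinery, 13 were higher and 3 lower, all 13 by at least 2-fold, with a median of 1.56. H2-K1 had 349 and 350 in WT and 37.4 and 48.8 in Control (3.00, SE 0.15, adjusted p = 1.83e-10), and H2-D1 had 199 and 210 against 61.6 and 76.8. H2-Q4 had 97.3 and 98.1 against 4.40 and 2.92, and H2-T3 45.3 and 54.0 against 0 in both Control libraries. Tap1, a peptide transporter, had 172 and 149 against 35.1 and 46.7, but 585 and 618 in the ETO libraries of E14tg2a. The 3 lower rows were Erap1, a peptide-trimming protease, the merged row of Tapbp and Zbtb22, and the merged row of 2410137M14Rik, H2-M5 and H2-M6-ps. The last was the most abundant of the list, with 1351 and 1380 in WT against 2849 and 2968 in Control. Summed over the 19 tested rows, the counts were lower in WT, 3889 to 4001 against 4900 to 5027. That merged row by itself differed by more than these sums, so it sets their direction. B2m, the shared light chain, did not pass the test, with 536 and 485 in WT and 571 and 537 in Control. Interferon response genes as a list were divided, 8 higher and 7 lower of 22, with a median of 0.03. Bst2, a tetherin, had 1405 and 1245 against 218 and 201, whereas Xaf1, a pro-apoptotic interferon target, had 137 and 156 against 2082 and 2017. Class I genes are near-identical copies that vary between strains, so reads can be split among their rows, and how the alignment placed them was not tested.

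The promoters of H2-K1, H2-D1 and H2-Q7 are shown because these genes of 1 family were higher in WT and share an upstream kappaB element. The element, searched on both strands in the 250 bases before the RefSeq start site (GRCm38.p6), is in capitals with 40 bases on each side. H2-K1 lies at chr17:34000409-34000498 on the minus strand, H2-D1 at chr17:35262883-35262972 and H2-Q7 at chr17:35438982-35439071 on the plus strand.
H2-K1: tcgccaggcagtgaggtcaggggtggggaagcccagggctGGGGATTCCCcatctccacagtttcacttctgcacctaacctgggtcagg
H2-D1: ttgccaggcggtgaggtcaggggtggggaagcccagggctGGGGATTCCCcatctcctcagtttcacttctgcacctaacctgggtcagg
H2-Q7: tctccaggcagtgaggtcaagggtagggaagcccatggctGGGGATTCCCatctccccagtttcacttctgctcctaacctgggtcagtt
Of 12 list members with a promoter in the RefSeq set these 3 held the letters, against 17 of 9520 tested autosomal genes (0.179%). Of the 19 tested list members 13 were higher in WT, with or without these letters.

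Amino acid response genes downstream of the stress factor ATF4 had the largest share of members higher in WT among the lists with at least 12 tested members. Of 32 tested, 23 were higher and 3 lower, 16 of the 23 by at least 2-fold, with a median of 1.01. Nupr1, a stress-induced nuclear protein, had 2264 and 2427 in WT against 482 and 496 in Control (2.26, SE 0.09, adjusted p = 1.87e-11). Ddit3, the factor CHOP, had 536 and 490 against 99.2 and 76.9, and Ddit4, an inhibitor of mTORC1, 2095 and 1889 against 518 and 461. Slc3a2, the shared heavy chain of amino acid exchangers, had 10566 and 9824 against 3364 and 3253. Asns, asparagine synthetase, had 20450 and 21197 against 10599 and 10737. Atf4 itself, at 4875 and 5049 against 5052 and 4960, did not pass the test, nor did Trib3, Chac1 or Ppp1r15a. The 3 lower genes were the amino acid transporters Slc38a2 and Slc7a1 and the stress protein gene Sesn2. Of the 26 called genes 23 were called in the same direction in KO against Released and these 3 in the opposite one. At 11 of the 32 tested genes the floxed line lay outside the range of all 6 E14tg2a libraries, against 35.8% of all tested genes. Ddit4, for instance, had 3304 and 3564 in the ETO libraries of E14tg2a.

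The upstream windows of Nupr1, Asns and Slc7a11 show the ATF4 element TGATGNAA in capitals, found on both strands in the 250 bases before the RefSeq start site (GRCm38.p6), with up to 40 bases on each side. They lie on the minus strand at chr7:126625533-126625620, chr6:7693210-7693272 and chr3:50443614-50443719.
Nupr1: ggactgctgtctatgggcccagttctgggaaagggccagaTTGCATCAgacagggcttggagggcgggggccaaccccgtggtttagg
Asns: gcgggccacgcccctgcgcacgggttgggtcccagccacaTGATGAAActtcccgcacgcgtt
Slc7a11: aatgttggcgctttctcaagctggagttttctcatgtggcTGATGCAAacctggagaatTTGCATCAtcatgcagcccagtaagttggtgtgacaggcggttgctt
The element was present for 7 of the 27 list members with a promoter, 6 of them higher in WT and 1, Chac1, not called, against 2.39% of the tested autosomal genes with a promoter. The list was made of genes downstream of ATF4, and 23 of its 32 tested members were higher in WT. The larger share of matches and their direction therefore follow from the list. Slc7a11, the cystine exchanger, had 25.9 and 34.4 in WT against 11.01 and 16.6 in Control.

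Among p53 targets 17 of 31 were higher and 6 lower, with a median of 0.45. Pmaip1, the pro-apoptotic BH3 protein NOXA, had 794 and 1008 in WT against 33.0 and 22.8 in Control (4.98, SE 0.15, adjusted p = 1.69e-12), and Rrm2b, a ribonucleotide reductase subunit, had 566 and 697 against 155 and 145. Junction genes were higher for 15 and lower for 9 of 30. Cldn7, a claudin of tight junctions, had 350 and 333 in WT against 18.7 and 13.5 in Control, and Epcam, an epithelial adhesion molecule, 1271 and 1335 against 334 and 341. Cdh2, N-cadherin, was lower with 12.96 and 9.82 against 89.2 and 75.8. Vim, the intermediate filament vimentin, is from the fibroblast and feeder list, where 2 tested genes were higher and 4 lower. It had 1738 and 1693 against 6489 and 6496. The 2 higher genes were Fn1, with 24447.5 and 24066.5 against 15862.3 and 15610.5, and Acta2, with 16.7 and 12.8 against 1.10 and 0.

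Most called genes of fatty acid oxidation differed by less than 2-fold, as did most called genes in general. Of all 9579 called genes, 3795 differed by at least 2-fold. Of 28 mitochondrial fatty acid oxidation genes 14 were higher and 3 lower in WT, with a median of 0.23, and of 16 peroxisomal ones 9 were higher and 1 lower. Those at least 2-fold higher numbered 4 and 2, and none was 2-fold lower, against 14.4% and 10.8% of all tested genes. Of 30 glycolysis genes 13 were higher and 11 lower, 6 and 3 of them by at least 2-fold. Cpt1a, the carnitine palmitoyltransferase that etomoxir blocks, had 3677 and 3589 in WT and 2297 and 2153 in Control, a ratio of 1.63 (0.71, SE 0.06, adjusted p = 4.63e-08). Acadl, a long-chain acyl-CoA dehydrogenase, had 528 and 587 against 194 and 177, but 543 and 529 in the ETO libraries of E14tg2a. Pdk4, a kinase that restrains pyruvate dehydrogenase, had 1104 and 1131 against 103 and 107, while Slc2a1, the glucose transporter GLUT1, was lower with 1683 and 1491 against 3683 and 3651. Mitochondrial ribosomal proteins were higher for 9 and lower for 41 of 74, with a median of -0.25. Of 12 tested subunits of the MSL and NSL complexes 2 were higher, Kansl3 and the merged row of Casc3 and Msl1, and 6 lower, none by 2-fold, and the call for the merged row was lost in the FPKM table, where its log2 difference was -0.08.

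**Figure D3:**
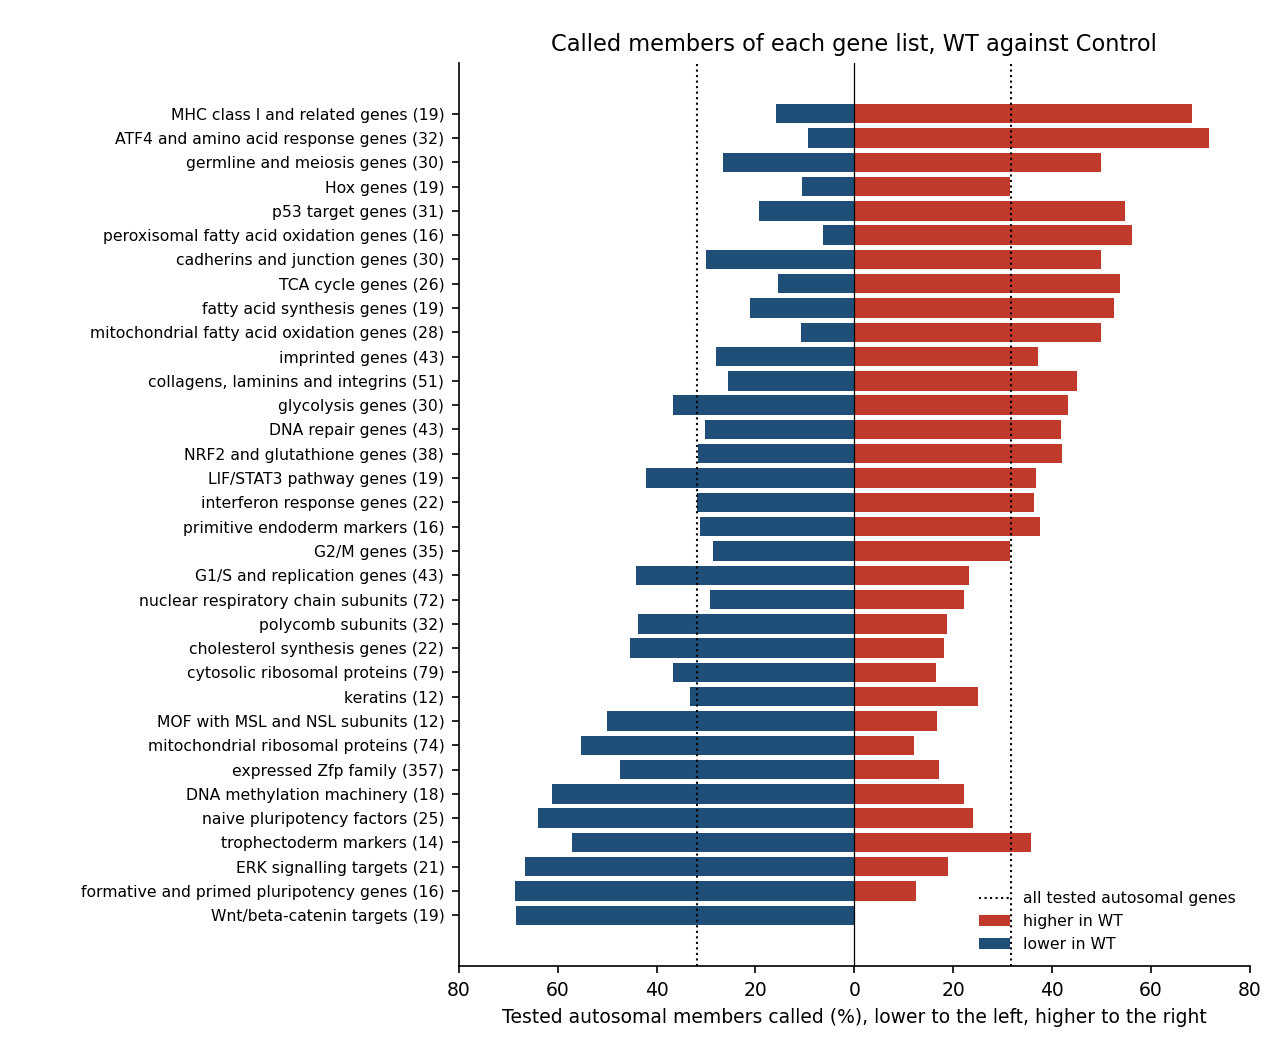
Share of tested autosomal members called higher (red, right) or lower (blue, left) in WT than in Control, for gene lists with at least 12 tested members, ordered by median log2 difference, with the number tested in parentheses and dotted lines at 31.8% and 31.9% for all tested autosomal genes. Wnt targets have 13 of 19 members lower and none higher, and ATF4 genes 23 of 32 higher.

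Germline genes were more often higher in WT and polycomb genes more often lower. Of 30 germline and meiosis genes 15 were higher and 8 lower in WT, with a median of 0.92, and 21 of the 23 called genes kept their direction and call in KO against Released. Dmc1, the meiotic recombinase, had 96.2 and 110 in WT and 12.1 and 11.4 in Control, and Stag3, a meiotic cohesin subunit, 1292 and 1311 against 609 and 604. Brdt, a testis bromodomain protein, had 1.85 and 3.93 in WT and 135 and 128.7 in Control. Dnmt3l, a cofactor of de novo methylation, had 196 and 200 against 729 and 777. Among 43 imprinted genes 16 were higher and 12 lower, shares near the 31.8% and 31.9% of all tested genes. Peg3 and its neighbour Usp29, both expressed from the paternal allele, were higher together, with 4215 and 4567 against 797 and 756 for Peg3 and 215 and 241 against 16.5 and 25.6 for Usp29. Peg10, a retrotransposon-derived paternally expressed gene, had 136 and 162 against 719 and 761. Of 32 polycomb genes 6 were higher and 14 lower, with a median of -0.09. Phf19, a PRC2 accessory subunit, had 155 and 137 against 9.91 and 14.5, and Epop, another, had 871 and 680 against 2269 and 2196. In the Zfp family of zinc-finger genes 61 of 357 were higher and 169 lower, with a median of -0.27.

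Markers of other cell types did not move as a block. Of 14 trophectoderm markers 5 were higher and 8 lower, and the 18 markers of the list in the table summed to 6061 to 6488 in WT and 5845 to 5936 in Control. Gata2, a trophoblast and blood factor, had 1087 and 912 in WT and 17.6 and 20.8 in Control (5.63, SE 0.15, adjusted p = 4.74e-13), whereas Cdx2, Elf5 and Hand1, 3 defining factors, were listed at 0 in both WT libraries. Of 16 primitive endoderm markers 6 were higher and 5 lower. Sparc, a secreted matrix protein, had 13997 and 13832 against 5272 and 4994. The GATA factors went in different directions: Gata6 had 7.40 and 6.87 against 11.01 and 14.5, while the mean of Gata4 was 3.99-fold higher in WT. The 19 markers of that list summed to 27210 to 27946 in WT and 16022 to 16466 in Control. Of 10 fibroblast and feeder markers 2 were higher and 4 lower. In that list Col1a2, Col3a1, Postn, Lum and Dcn were among the 8 of 18 markers listed at 0 in both WT libraries, and Col6a1, Dcn and Twist2 were listed at 0 in both Control libraries. Neural markers were higher for 3 and lower for 3 of 9, with Nes, a filament of neural progenitors, at 771 and 838 against 198 and 188.

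Differences were not spread evenly over the chromosomes. Genes of chromosome 8 were shifted upward in WT, with a median log2 difference of 0.37 relative to all autosomes over 801 genes, a ratio of 1.29. In this measure, the median log2 deviation of the chromosome's genes from their mean over 10 libraries minus that of all autosomes, the WT libraries stood at 0.21 and 0.20 and the KO libraries at 0.175 and 0.173. All 6 E14tg2a libraries lay between -0.15 and -0.12, so the lines did not overlap. Of the chromosome's genes 50.4% were called higher and 16.6% lower. Every 10-Mb window with at least 20 genes was shifted upward, by 0.20 to 0.51. In KO against Released the first window, at -0.04, and the last, at -0.002, were not, and the 10 others were. Genes near that median include Cdh1, the adhesion molecule E-cadherin, with 12510 and 12482 in WT against 9693 and 9710 in Control (0.36, SE 0.05, adjusted p = 1.1e-05), and Fnta, a farnesyltransferase subunit, with 1524 and 1584 against 1194 and 1226.

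Chromosome 14 was shifted upward by 0.19 over 485 genes, with 40.4% higher and 22.7% lower. The shift was uneven along it: 3 windows between 10 and 40 Mb had medians of -0.15 to -0.04 and the 5 others tested, from 40 Mb onward, 0.25 to 0.39. The Released libraries, at -0.19 and -0.18, lay below the Control libraries at -0.04 and -0.03, so that E14tg2a libraries differed among themselves on this chromosome. Chromosome 18 was shifted downward by a median of -0.19 over 353 genes, with 21.5% higher and 43.3% lower, and WT replicate 1 at -0.15 stood apart from WT replicate 2 at -0.05. The other 16 autosomes had medians between -0.10 and 0.06. With genes of all levels included, the shifts of chromosomes 8, 14 and 18 were 0.22, 0.01 and -0.08. These medians are given without a test, since an exact permutation test of 2 libraries against 2 cannot reach the threshold, and the copy number of these chromosomes was not tested.

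**Figure D4:**
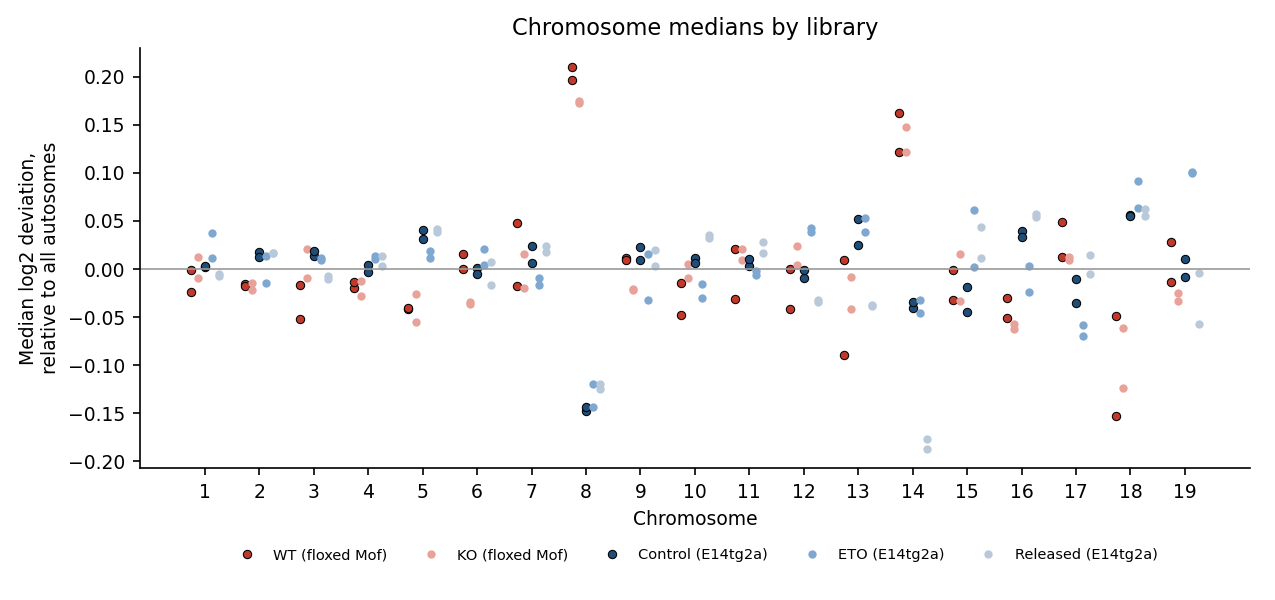
Median log2 deviation of the genes of each autosome, relative to all autosomes, 1 point per library. On chromosome 8 the 4 libraries of the floxed line lie between 0.173 and 0.21 and the 6 E14tg2a libraries between -0.15 and -0.12.

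**Figure D5:**
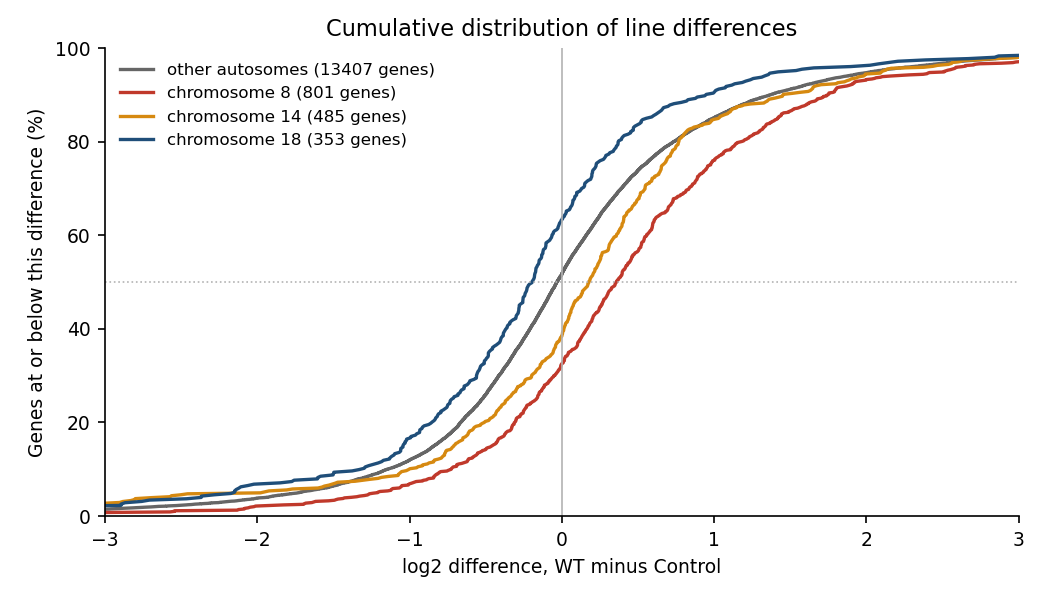
Cumulative share of genes by log2 difference, WT minus Control, for chromosomes 8, 14 and 18 and the other autosomes together. At its centre the curve of chromosome 8 lies to the right of the other autosomes, with a median of 0.37 relative to all autosomes, and that of chromosome 18 to the left, with a median of -0.19.

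On a smaller scale, some neighbouring genes differed in the same direction. Of all tested genes 14.4% were called at least 2-fold higher and 10.8% lower, and how many runs these shares give without regard to position was not tested. There were 32 runs of at least 4 adjacent tested rows that were all called at least 2-fold apart in 1 direction, 20 higher and 12 lower in WT, with at most 7 rows in a run. In 3 of the lower runs a merged row repeats a gene that has its own row, and without such rows 29 runs of at least 4 remained, 20 higher and 9 lower, with 137 rows in all. The class I region held 2 of them, H2-D1 to H2-Q7 and H2-T10 to H2-T3. In the latter, the predicted gene Gm8909 had 299 and 322 in WT and 3.30 and 0 in Control. On chromosome 7, 4 runs higher in WT lay within chr7:45176349-46796064 in mm10, and they include Tead2, a partner of YAP with 2886 and 2786 against 992 and 947, Dkkl1, Ush1c, a scaffold protein of hair cells, and Saa3. A run of 7 genes on chromosome 11 was lower in WT and holds the Schlafen cluster, in which Slfn9 had 304 and 350 against 970 and 963 and Slfn8 3.70 and 1.96 against 132 and 135. Serpinb9b, an intracellular protease inhibitor in a run of 4 on chromosome 13, had 45.3 and 60.5 against 1027 and 959. Members of such clusters share sequence, so their counts are not independent of each other.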

How the data were processed

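RNA from 10 libraries of mouse ES cells was sequenced single-end after TruSeq preparation, per the labels' protocols. The submitters' processing notes name TopHat2 2.1.1, SAMtools 1.5, deepTools and mm10, and the counting program and its use of strand are not given in the sources used here, so antisense and overlapping genes are uncertain. Deposited signal values behave as gene read counts that were scaled library by library: within a tolerance of 0.1 read, 84.4% to 85.6% of values above 0 were whole reads, so no count model was fitted. The deposited FPKM values, from the authors' second table, served as an alternative. Rows that merge genes, 966 of the tested autosomal rows, were kept as 1 row. Values were analysed as log2(value + 1), which understates differences of weakly expressed genes, with limma 3.58.1 in R 4.3.3 (trend, robust, 1 mean per group over 10 libraries, 5 residual degrees of freedom), two-sided, with Benjamini-Hochberg adjustment over 16058 genes. Both line comparisons come from this fit and share its spread estimates. Gene positions are from GENCODE M21 and RefSeq. The 42 gene lists and the members were chosen with earlier results of these data known, and no list was tested. Named genes were the 12 largest differences in each direction with a mean of at least 100, up to 4 called members per list with the smallest adjusted p, genes nearest the median of the shifted chromosomes, and genes that bear on the labels. Other list members and run members were picked after their values were seen, and a few genes are not reported here. Recovery of known fold changes was checked on simulated data. Python 3.11.15, numpy 2.4.6, pandas 2.3.3 and matplotlib 3.10.9 were used.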

Additional observations from a re-analysis of the deposited data

Results flagged for a closer look

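Of all 9579 called genes, 386 (4.03%) were called in the opposite direction in KO against Released. Among the genes named by rule there were 3, and the difference between their 2 line differences passed limma's test. Slc38a2, Slc7a1 and Sesn2, described above, were not named by rule and also had opposite calls. Itga3, an integrin subunit, was higher in WT than in Control (1.67) and lower in KO than in Released (-0.32), a difference of 1.99 (adjusted p = 2.05e-06). Hoxb13 had 1.64 and -1.58, a difference of 3.22 (adjusted p = 0.00235), and Hoxb4 had 1.29 and -1.12, a difference of 2.41 (adjusted p = 0.0069). Both Hox genes had under 35 normalised counts in every library.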

How the results depend on the processing

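The count of called genes ranged from 7363 (FPKM table) to 9817 (no filter on low values) over the alternatives, and from 8274 to 9065 when 1 of the 4 libraries was left out. The 2-fold count was 2605 with a minimum value of 50 and 4413 with no filter, and 3577 to 3670 with 1 library left out. Counted at 4-fold or more, 1362 genes were called, 754 with a pseudocount of 5 and 736 with a minimum of 50. For KO against Released the counts with 1 library left out were 8596 to 9095, and 53.4% of its calls were higher in KO, against 49.2% with median-of-ratios factors, 48.8% with trimmed-mean factors and 41.8% with total signal as the factor. The replicate numbers do not pair the libraries (r = 0.01 over 16058 genes), and a replicate block in a fit of the 4 libraries gave 9405 calls and 3828 at 2-fold. The chromosome 8 median was 0.35 with a pseudocount of 5 and in the FPKM table, 0.22 with no filter, 0.40 with a minimum of 50 and 0.378 to 0.38 with any 1 of the 4 libraries left out. Chromosome 14 gave 0.014 with no filter and 0.22 with a minimum of 50, and chromosome 18 gave -0.081 with no filter. Among named rows and list medians, signs turned for the merged row of Casc3 and Msl1 (-0.077, FPKM table), the Hox median (-0.053, minimum of 50) and the keratin median (0.13, FPKM table, and -0.41 to 0.051 with 1 library left out); the cause was not tested. Of the 3795 genes at least 2-fold apart, 295 to 310 lost their call with 1 library left out, and 458 in the FPKM table, where 12 had the other sign. Differences under 3 reads per library were not detectable at this depth.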
